A study of Capra hircus with 2 samples.

Results

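The miR-10, miR-99/100 and miR-125 families are related groups of miRNAs, and 8 of the 346 conserved miRNAs listed by the study belong to them. They were chosen by name alone, and comprise miR-10a, miR-10b, miR-99a, miR-99a*, miR-99b, miR-100, miR-125a and miR-125b. Their reads were followed in small RNA from the mammary gland of Xinong Saanen dairy goats, aged 2.5 years by the study's methods. The dry period library (D) and the peak lactation library (P) were each made from RNA of 3 goats that was pooled before sequencing. Each stage was therefore represented by 1 library without replicates, and every interval or p value below covers counting error only and compares these 2 libraries, not the stages. No genetic change or treatment is given for either group. The sample labels attach 75 days after lambing to the dry period and 320 days to peak lactation, whereas the study's text gives these days the other way round, and the titles of the samples were followed for the stage.

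A mature miRNA guides the silencing complex to messenger RNAs mainly through its seed, which is bases 2 to 8 from the 5′ end. The miR-10 genes lie inside the HOX clusters, which hold the transcription factors that set position along the body axis. The miR-99/100 family is thought to derive from the same ancestor as miR-10 and is known for repressing the growth kinase mTOR. The miR-125 family is the vertebrate counterpart of worm lin-4, and in mammary cells it is known for repressing the growth factor receptors ERBB2 and ERBB3. In mammals, genes of miR-99/100, let-7 and miR-125 are found together in short clusters.

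The 8 listed sequences are shown because the seed sorts them into groups and because some differ by 1 base, which decides whether their reads can be told apart. They were taken from the study's list of conserved miRNAs, are written 5′ to 3′, and carry the seed in capitals.
miR-10a: uACCCUGUagauccgaauuugu
miR-10b: uACCCUGUagaaccgaauuugu
miR-99a: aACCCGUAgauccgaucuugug
miR-100: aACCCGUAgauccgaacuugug
miR-99b: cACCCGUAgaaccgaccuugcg
miR-125a: uCCCUGAGacccuuuaaccugu
miR-125b: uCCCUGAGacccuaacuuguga
miR-99a*: cAAGCUCGcuucuaugggucugu

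The seed ACCCUGU was shared by 2 members, ACCCGUA by 3 and CCCUGAG by 2, and no other listed miRNA carried any of them. The star form miR-99a*, from the opposite arm of the miR-99a hairpin, had a seed of its own. With positions counted from 1 at the 5′ end, miR-10a and miR-10b differed only by U12A, and miR-99a and miR-100 only by U16A. From miR-99a to miR-99b the changes were A1C, U11A, U16C and U21C. The miR-125 sequences were identical for their first 13 nt.

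A read sequence, called a tag here, was counted for a member when it was identical to the listed sequence for at least 18 nt from the 5′ end, so the base that separates miR-10a from miR-10b, or miR-99a from miR-100, was read in every counted tag. Misread bases were rare at these positions. Among tags with the first 18 nt of miR-99a or miR-100 and any base at position 16, only 7 of 17009 reads (0.0412%) in D and 1 of 5150 (0.0194%) in P carried a base of neither miRNA. At position 12 of miR-10a and miR-10b the corresponding counts were 3 of 15504 reads (0.0193%) in D and 3 of 9400 (0.0319%) in P.

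D held 14851375 clean reads and P 15712891, and levels are given as reads per 1000000 clean reads (RPM). A floor of 3 reads, below which no level is read, corresponds to 0.202 RPM in D and 0.191 RPM in P. The libraries differed in composition. Conserved miRNAs took 61.1% of D and 14.4% of P, and reads of 21 to 23 nt took 73.3% and 41.2%. The 8 members together had 59404 reads in D and 23700 in P, which was 0.40% and 0.151% of the clean reads. As a share of the conserved miRNA reads they were instead higher in P, at 1.05% (95% Wilson interval 1.03 to 1.06%) against 0.654% (0.649 to 0.659%) in D. The study's own count of reads matched to conserved miRNA precursors was lower in D and higher in P than the total used here. Over the study's totals the members' share would be lower in P. The direction of a change in these families therefore depended on the denominator and on how it was counted, and both scales are given below. Conserved miRNA reads there always mean the total counted here, and values higher in P on that scale need not be so over the study's totals.

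The miR-10 family showed the smallest difference between the libraries per clean read. miR-10a, whose gene lies beside HOXB genes, had 7877 reads (530 RPM) in D and 4372 reads (278 RPM) in P. Its level was lower in P per clean read, with a log2 fold change of P over D of −0.93 (95% interval −0.98 to −0.88), but higher per conserved miRNA read and with TMM or DESeq2 factors. miR-10b, whose gene lies beside HOXD3 and which is known for promoting the spread of breast cancer cells, had 7624 reads (513 RPM) in D and 5025 reads (320 RPM) in P, a log2 fold change of −0.68 (−0.73 to −0.63) that also turned positive on those scales and by reads of 21 to 23 nt. Per clean read neither passed the study's rule for a change, an absolute log2 fold change above 1 with an Audic-Claverie p below 0.01. Their order turned, from 1.03 miR-10a reads for each miR-10b read in D to 0.870 in P.

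The miR-99/100 family fell further per clean read. miR-99a had 13597 reads (916 RPM) in D and 3902 reads (248 RPM) in P, a log2 fold change of −1.88 (−1.93 to −1.83). It was the largest decrease among the 7 members from the 5′ arm of their hairpins. miR-99b had 5050 reads (340 RPM) in D and 1920 reads (122 RPM) in P, a log2 fold change of −1.48 (−1.55 to −1.40). For miR-100, which differs from miR-99a by 1 base, 3405 reads (229 RPM) in D stood against 1247 reads (79.4 RPM) in P, a log2 fold change of −1.53 (−1.62 to −1.44). All 3 passed the rule as lower in P per clean read, and all 3 were higher in P, without passing the rule, when scaled to the conserved miRNA reads.

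The miR-125 family moved much as miR-99/100 did. miR-125a had 6109 reads (411 RPM) in D and 2438 reads (155 RPM) in P, a log2 fold change of −1.41 (−1.47 to −1.34). miR-125b, the most abundant member in D, had 15420 reads (1038 RPM) there and 4730 reads (301 RPM) in P, a log2 fold change of −1.79 (−1.83 to −1.74). Both passed the rule as lower per clean read, and both were higher without passing it per conserved miRNA read. The passenger form miR-99a* was the rarest member, with 322 reads (21.7 RPM) in D and 66 reads (4.20 RPM) in P. It had the largest decrease of the 8, a log2 fold change of −2.37 (−2.75 to −1.99). The value stayed below 0 on all scales computed, but was only −0.28 per conserved miRNA read and did not pass the rule there.

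In D the members were ordered, from most to fewest reads, as miR-125b, miR-99a, miR-10a, miR-10b, miR-125a, miR-99b, miR-100 and miR-99a*. The intervals of neighbours overlapped only for miR-10a (519 to 542 RPM) and miR-10b (502 to 525 RPM). In P, miR-10b came first, followed by miR-125b, miR-10a and miR-99a, while the last 4 kept their order, and no intervals of neighbours overlapped. Among all conserved miRNAs, miR-10a moved from rank 54 to 48 and miR-10b from 55 to 46, whereas miR-99a moved from 43 to 49 and miR-125b from 42 to 47. These orders are of reads, which were not corrected for how well each miRNA enters a library.

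**Figure D1:**
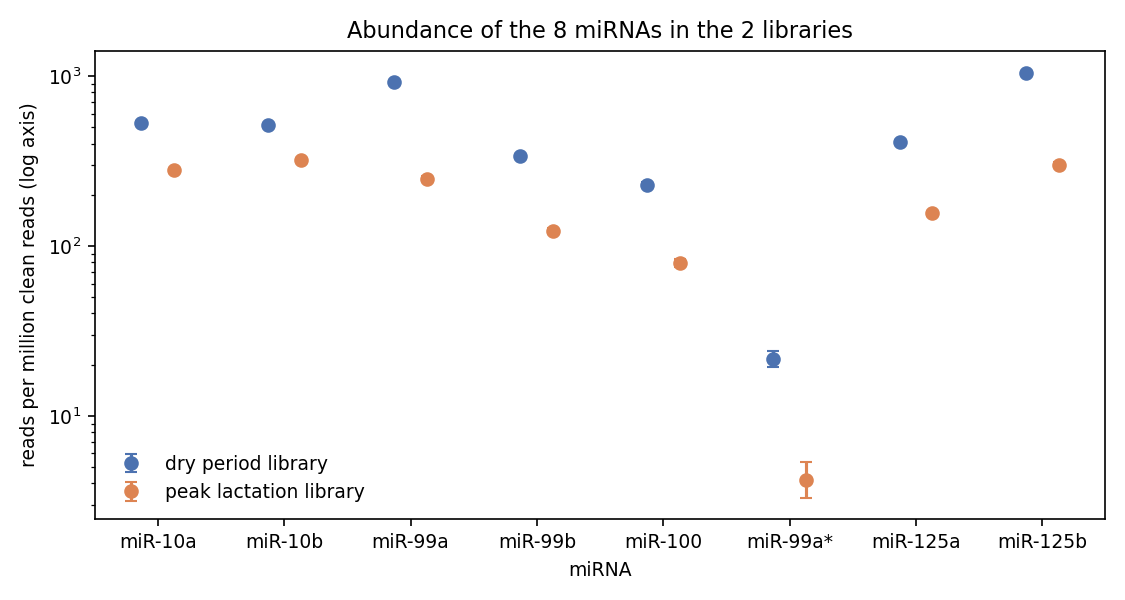
Reads per 1000000 clean reads (log axis) of the 8 miRNAs in the dry period library (blue) and the peak lactation library (orange), with bars for the 95% Wilson interval of each library, hidden by the point where counts are high. Per clean read every blue point lies above its orange partner (per conserved miRNA read only that of miR-99a* would), and the gap is smallest for miR-10b (513 against 320 RPM) and largest for miR-99a* (21.7 against 4.20 RPM).

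These decreases were set beside all 257 conserved miRNAs with at least 1 RPM in either library, of which 67.7% were called lower and 1.17% higher in P per clean read. The 6 of 8 members called lower, with 0 called higher, were close to that background. The members' median log2 fold change was −1.50 and that of all tested miRNAs −1.44, with quartiles of −2.15 and −0.92. miR-10b, at −0.68, lay above the upper quartile, and 214 of the 257 had a lower value. miR-10a, at −0.93 with 190 below it, lay just inside the upper quartile. miR-99a* lay under the lower quartile, with 48 below it, and the other 5 members also lay between the quartiles. Pooled tissue RNA cannot tell fewer cells of a type from less of a miRNA in each cell.

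Scaling to the reads of conserved miRNAs counted here added 2.08 to every log2 fold change, more than the study's totals would. It brought the median of all tested miRNAs to 0.64. On that scale 5.84% of the 257 were called lower and 33.1% higher, and of the members 0 were called lower and 2 higher, namely miR-10a at 1.15 and miR-10b at 1.40. The other 5 members of the 5′ arm lay between 0.20 for miR-99a and 0.68 for miR-125a, and miR-99a* lay at −0.28. TMM factors of edgeR, which put the median of all tested at −0.14, called 18.7% lower and 8.17% higher. Of the members they called only miR-99a*, as lower at −1.07, and left miR-10a at 0.37 and miR-10b at 0.62. DESeq2 size factors, with a median of −0.04, called 16.3% lower and 10.9% higher and 0 of the 8 members in either direction, while miR-10a stood at 0.47, miR-10b at 0.71 and miR-99a* at −0.97. Scaling to reads of 21 to 23 nt, with a median of −0.61, called 31.9% lower and 3.5% higher. Of the members it called 2 lower, miR-99a at −1.05 and miR-99a* at −1.54, and 0 higher.

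**Figure D2:**
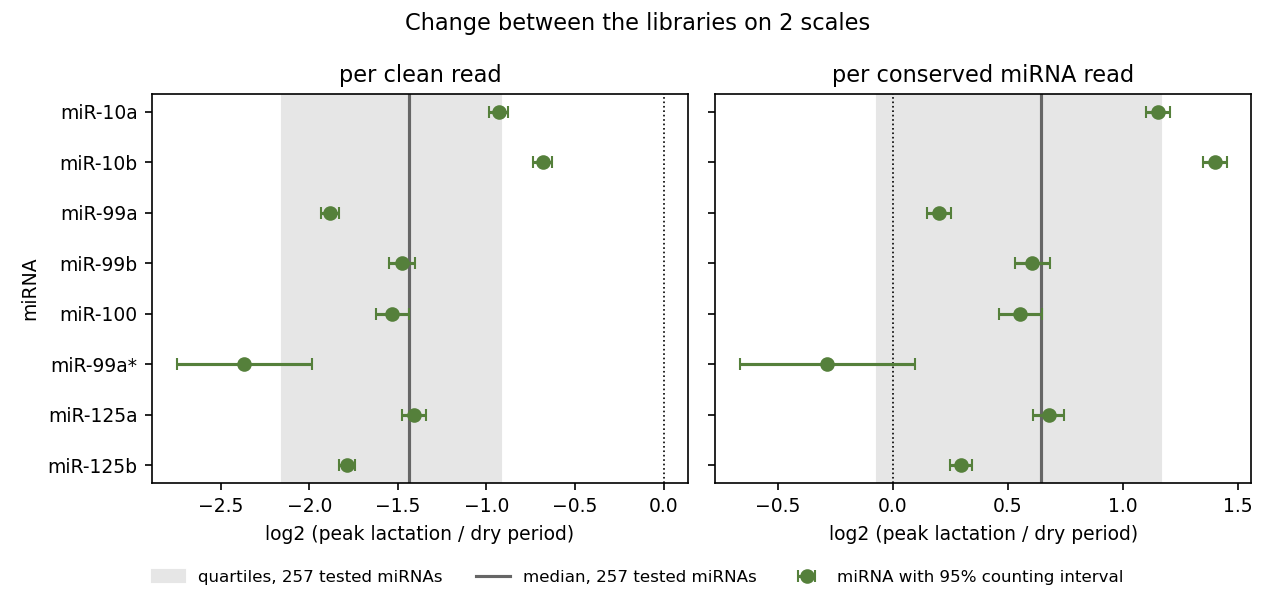
Log2 ratio of peak lactation over dry period for each of the 8 miRNAs (green points, 95% counting intervals), per clean read on the left and per conserved miRNA read on the right, against the median (grey line) and quartiles (grey band) of 257 tested miRNAs. The pattern among the 8 is the same in both panels and only the position of 0 (dotted line) moves, with miR-10b to the right of the grey band and miR-99a* to its left.

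What did not depend on any scale was the change of one member relative to another within the libraries. The summed miR-10 family had 15501 reads in D and 9397 in P, miR-99/100 without the star form 22052 and 7069, and miR-125 21529 and 7168. For each miR-99/100 read there were thus 0.703 miR-10 reads in D and 1.33 in P. The log2 fold change of miR-10 exceeded that of miR-99/100 by 0.92 (0.87 to 0.97) and that of miR-125 by 0.86 (0.81 to 0.92). Between miR-99/100 and miR-125 the difference was only −0.05 (−0.11 to −0.0001), with a p of 0.050 in Fisher's exact test, two-sided.

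All 28 pairs of members were compared by Fisher's exact test, two-sided, on their 4 read counts. The log2 fold changes of 26 pairs differed at an adjusted p below 0.05 (Benjamini-Hochberg over the 28), at which depth even small differences pass. The largest difference between members of the 5′ arm was that of miR-10b and miR-99a, at 1.20 (1.13 to 1.27). It reflects a ratio of 0.561 miR-10b reads for each miR-99a read in D and 1.29 in P.

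Of the 5 pairs of members with a common seed, 4 differed in log2 fold change. miR-99a and miR-100 stood at 3.99 to 1 in D and 3.13 to 1 in P, a difference of −0.35 (−0.46 to −0.25) in log2 fold change. The ratio of miR-99a to miR-99b went from 2.69 to 2.03, a difference of −0.41 (−0.50 to −0.31). miR-125a stood at 0.396 of miR-125b in D and 0.515 in P, a difference of 0.38 (0.30 to 0.46). The difference of miR-10a and miR-10b was smaller, at −0.25 (−0.32 to −0.17).

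The 2 pairs that did not pass were miR-99b with miR-100, whose log2 fold changes differed by 0.05 (−0.07 to 0.17, adjusted p 0.383 in Fisher's exact test), and miR-99b with miR-125a, by −0.07 (−0.17 to 0.03, adjusted p 0.185 in Fisher's exact test). miR-99a and miR-125b, which flank let-7c in the goat annotation, differed by −0.10 (−0.17 to −0.03).

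Arms of the miR-99a hairpin were read at unequal levels in both libraries. The reads of miR-99a* amounted to 2.37% of those of miR-99a in D (exact 95% interval 2.11 to 2.65%) and to 1.69% in P (1.31 to 2.16%). The decrease of this ratio had an adjusted p of 0.0149 in Fisher's exact test, two-sided, over the 28 pairs, and rests on 66 star reads in P.

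The members' genomic neighbours were looked up in the RefSeq annotation of the goat assembly ARS1.2. MIR10A lay between HOXB5 and HOXB3, and MIR10B beside HOXD3. MIRLET7C lay between MIR125B and MIR99A, and MIR99B was next to MIRLET7E. MIR100 had unnamed genes on both sides, and miR-125a had no entry. Another pair of HOX cluster miRNAs, miR-196a and miR-196b, had MIR196A between HOXB13 and HOXB9 and MIR196B between HOXA9 and HOXA10.

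Per clean read these partner miRNAs fell further than the members, and they also stayed below 0 per conserved miRNA read. miR-196a, which is known for repressing HOX messages, had 434 reads in D and 35 in P, a log2 fold change of −3.71 per clean read. miR-196b had 207 and 28, or −2.97. Of the let-7 miRNAs, which are known for holding back cell growth, let-7a had 2628486 reads in D and 359477 in P, or −2.95. The values were 392684 and 32411 for let-7c, or −3.68, and 110311 and 12204 for let-7e, or −3.26. All 5 were called lower per clean read, as were 67.7% of the 257 tested miRNAs. Per conserved miRNA read 3 of 5 were called lower, against 5.84% of the 257. On that scale miR-196b stood at −0.88 and let-7a at −0.87 without passing.

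Relative to a partner miRNA, each of the 7 members of the 5′ arm was higher in P, a comparison within the libraries that uses no scale, and miR-99a* was not compared. This is not particular to the members. All 5 partners lay below the lower quartile of the 257 tested miRNAs (−2.15 per clean read), so most tested miRNAs were also higher in P relative to them. The log2 fold change of miR-99a exceeded that of let-7c by 1.80 (1.74 to 1.85), and that of miR-125b did so by 1.89 (1.84 to 1.94). miR-99b exceeded let-7e by 1.78 (1.70 to 1.86) and miR-125a did by 1.85 (1.78 to 1.92). miR-100 exceeded let-7a, its usual cluster partner in mammals, by 1.42 (1.33 to 1.51), although let-7a is also made from other hairpins. The gap between miR-10a and miR-196a was 2.78 (2.28 to 3.28), and that between miR-10b and miR-196b 2.28 (1.71 to 2.86). The latter 2 are not from the same cluster, as MIR10B lay beside HOXD3 and MIR196B beside HOXA genes.

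Among the 95 other conserved miRNAs with at least 1000 reads in D, those whose log2 fold change came nearest to that of the summed miR-10 family (−0.80) were miR-193a-3p at −0.77 and miR-30a-5p at −0.84. For miR-99/100 (−1.72) and for miR-125 (−1.67) they were the same pair, miR-660 at −1.68 and miR-532 at −1.67. Likeness here means the gap in log2 fold change over 1 pair of libraries and nothing more.

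Markers of the cell types that the tissue could hold differed between the libraries too. All 6 epithelial markers (the miR-200 family, miR-141 and miR-205) were read in both libraries, and their summed level was 2687 RPM in D and 1342 RPM in P, a log2 fold change of −1.0. The 5 markers of smooth muscle and stroma summed to 21942 and 6510 RPM (−1.75), and the 2 of endothelium to 129 and 81.4 RPM (−0.66). The 8 markers of blood and immune cells summed to 607 and 367 RPM (−0.72), and the 4 of striated muscle to 7241 and 3847 RPM (−0.91). Nearly all of the striated muscle sum was miR-1 (7175 RPM in D and 3835 RPM in P). Per conserved miRNA read all 5 sums were instead higher in P, with log2 fold changes from 0.33 for smooth muscle and stroma to 1.42 for endothelium. The sums did not hold for every marker. For smooth muscle and stroma only miR-143 (8544 RPM in D and 4711 RPM in P) was higher per conserved miRNA read. miR-145 (3301 and 488 RPM), miR-199a-3p (9963 and 1284 RPM), miR-199a-5p and miR-214 were lower on that scale, as were miR-206, miR-142* and miR-223. The blood and immune list was not uniform per clean read. In it the red cell miRNAs miR-451 (51.3 RPM in D and 108 RPM in P), miR-144 (17.0 and 35.4 RPM) and miR-486 (41.5 and 46.1 RPM) were higher in P, and the other 5 lower, among them miR-142 (368 and 118 RPM). None of these markers was at 0 in either library. The part of the cell mixture, or of the smaller conserved miRNA share of P, in the values of the 8 members was not tested.

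Tags of a member were allowed to end anywhere after base 18, so the 3′ ends could be compared between members and libraries. For 7 members the most frequent tag was the listed sequence in both libraries. The exception was miR-99a. Its main tags are shown because their order turned between the libraries, and the capital marks the last base of the listed form.
miR-99a, 22 nt: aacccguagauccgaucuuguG
miR-99a, 21 nt: aacccguagauccgaucuugu

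The listed 22 nt form had 6129 reads in D and 1404 in P, and the form that was 1 base shorter had 4250 and 1444. The log2 fold changes per clean read were −2.21 (−2.29 to −2.12) and −1.64 (−1.72 to −1.55), and per conserved miRNA read −0.12 and 0.45. In miR-10a the shift went the other way. Its listed 22 nt form had 5041 reads in D and 3143 in P, a log2 fold change of −0.76 (−0.83 to −0.70), while its 21 nt form had 1175 and 277, or −2.17 (−2.35 to −1.98). The 21 nt form of miR-10a thus passed the rule for a lower level per clean read although miR-10a as a whole did not, and it stood at −0.08 per conserved miRNA read.

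As a share of the member's reads, shorter ends without any other base fell from 18.8% in D to 7.89% in P for miR-10a, from 11.6% to 8.0% for miR-10b and from 26.4% to 23.4% for miR-125a. They rose from 37.1% to 45.9% for miR-99a, from 21.4% to 34.8% for miR-99a* and from 23.2% to 26.1% for miR-125b. For miR-99b they rose from 26.4% to 29.0% and for miR-100 from 25.6% to 28.8%. All 8 changes had an adjusted p below 0.05 in Fisher's exact test, two-sided, with Benjamini-Hochberg over the members. Each of the 3 members with the ACCCGUA seed had a larger shortened share in P, and both members with the ACCCUGU seed had a smaller one. Those with the CCCUGAG seed went opposite ways, smaller for miR-125a and larger for miR-125b. Over the 143 conserved miRNAs with at least 100 reads in both libraries, the median change of this share was 0 percentage points, with quartiles of −1.87 and 1.56. The change of miR-10a was −10.9 points and that of miR-99a 8.75 points. Nearer to the quartiles lay miR-10b (−3.61 points), miR-125a (−2.97 points), miR-99b (2.61 points), miR-125b (2.88 points) and miR-100 (3.15 points). The test was run on the members only, so the share of the 143 that would pass it is not known. When each distinct tag was counted once in place of its reads, 0 of the 8 changes passed.

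The listed end had the opposite pattern in most members. Its share rose from 64.0% to 71.9% for miR-10a and from 65.8% to 69.1% for miR-10b, and fell from 45.1% to 36.0% for miR-99a. It fell in 4 further members, among them miR-99a*, which went from 54.3% of 322 reads to 31.8% of 66 reads. Only miR-125a, with 50.7% in D and 51.6% in P, did not pass (adjusted p 0.458 in Fisher's exact test). Over the 143 well-read miRNAs the quartiles of this change were −2.74 and 2.90 points, so the changes of miR-10b (3.21 points), miR-100 (−3.41 points) and miR-125b (−2.88 points) lay only just outside them.

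The base found behind the listed end set the members apart more than the libraries did. Reads extended by an adenine made up 32.2% of miR-100 (30.7 to 33.8%) in D and 31.5% (29.0 to 34.1%) in P. In miR-99a, which differs from it only at position 16, they made up 11.0% (10.4 to 11.5%) and 11.4% (10.4 to 12.4%). Values for miR-99b and miR-125b lay between these, at 16.6% and 14.5% for the former and 16.9% and 16.3% for the latter. In miR-10a, miR-10b and miR-125a at most 2.05% of reads carried it, and in miR-99a* 3.11% in D and 4.55% in P. The former 3 were extended by a guanine instead, in 14.2% and 17.1% of the reads of miR-10a, 14.8% and 15% of miR-10b, and 19.0% and 20.2% of miR-125a. Uridine extensions were most frequent in miR-99b, with 9.90% in D and 12.2% in P. Over the 143 well-read miRNAs the median share extended by an adenine was 5.35% in D and 4.80% in P, and that extended by a uridine 3.18% and 2.56%. No hairpin sequence was used here, so bases copied from the gene and bases added afterwards cannot be told apart.

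**Figure D3:**
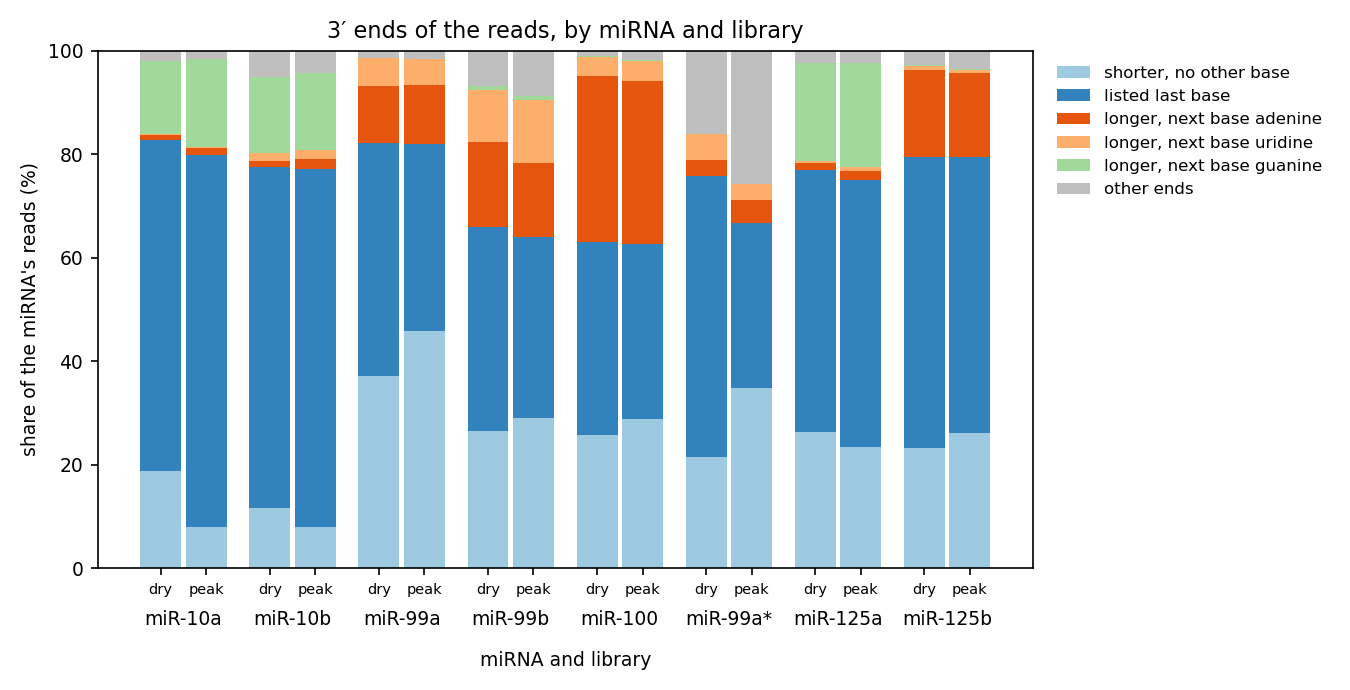
Share of reads (%) by 3′ end for each of the 8 miRNAs in the dry period and peak lactation libraries, where shorter means ending before the listed last base and longer means that the listed sequence is followed by the base named. The light blue part shrinks in P for miR-10a (18.8 to 7.89%) and grows for miR-99a (37.1 to 45.9%), and the dark orange part is widest for miR-100 (32.2 and 31.5%).

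miR-10b also had long tags of a kind that was rare in miR-10a. Reads of 25 nt or more made up 5.15% of miR-10b in D (393 reads) and 5.09% in P (256 reads), against 0.0508% and 0.274% of miR-10a. The most frequent of them are shown with the bases beyond the listed end in capitals.
miR-10b, 26 nt: uacccuguagaaccgaauuuguGUAG
miR-10b, 25 nt, first form: uacccuguagaaccgaauuuguUCC
miR-10b, 25 nt, second form: uacccuguagaaccgaauuuguGGC

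The 26 nt tag had 114 reads in D and 93 in P, the first 25 nt form 66 and 6, and the second 54 and 12. The same 4 bases GUAG behind the listed end of miR-10a were read 0 times in D and 1 time in P, and UCC and GGC 0 times in either. GUAG also followed the listed end of miR-99b (10 reads in D and 3 in P), miR-125a (8 and 4), miR-99a (8 and 1) and miR-100 (6 and 0). Among the 143 well-read miRNAs, the median share of reads of 25 nt or more was 0.493% in D and 0.549% in P, and 7 miRNAs in D and 11 in P had a larger share than miR-10b. The source of these bases was not tested.

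Because the first base sets the seed, the starts of the reads were examined as well, using all tags that held positions 3 to 18 of a member at any place. Of the 8 members, miR-10b had the largest share of reads that began 1 base later than listed, at 13.7% in D (1217 of 8872, Wilson interval 13 to 14.4%) and 12.7% in P (736 of 5787, 11.9 to 13.6%). In miR-10a, with the same first 11 bases, such reads made up 2.94% in D (240 of 8152, 2.60 to 3.33%) and 3.04% in P (138 of 4535, 2.58 to 3.58%). The intervals of the libraries overlapped for each miRNA, whereas those of miR-10a and miR-10b did not overlap in either library. The median over 121 well-read miRNAs with a core of their own was 0.231% in D and 0.235% in P, and 5 of them had a larger share than miR-10b in each library.

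The shifted tags are shown because their bases 2 to 8, in capitals, form another seed than that of the listed forms.
miR-10b, start 1 base later: aCCCUGUAgaaccgaauuugu
miR-10a, start 1 base later: aCCCUGUAgauccgaauuugu
miR-99a, start 1 base earlier: aAACCCGUagauccgaucuugu

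That of miR-10b was read 344 times in D and 192 times in P, and that of miR-10a 75 and 39 times. For miR-99a the shift went to the other side. Reads that began 1 base earlier made up 1.43% in D (205 reads, 1.25 to 1.64%) and 2.26% in P (95 reads, 1.85 to 2.76%), and the tag shown was read 162 and 70 times. In miR-100 the reads that began 1 base later were 2.01% in D and 2.27% in P, and in miR-99b 1.09% and 1.18%. Starts of the miR-125 family were the most uniform, with at most 0.405% of reads shifted to either side.

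**Figure D4:**
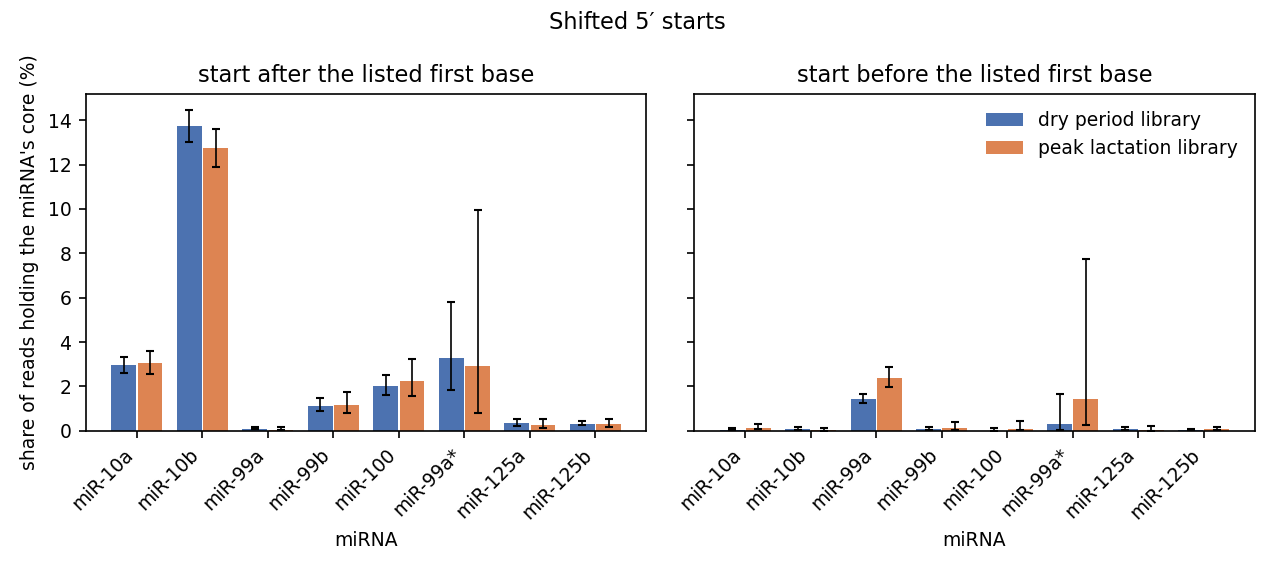
Share of the reads holding positions 3 to 18 of each miRNA that began after (left) or before (right) the listed first base, in the dry period (blue) and peak lactation (orange) libraries, with 95% Wilson intervals. miR-10b is the highest on the left (13.7 and 12.7%), miR-99a has the only well-measured early starts on the right (1.44 and 2.38%), and the wide bars of miR-99a* rest on 334 and 69 reads.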

How the data were processed

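Small RNA of mammary gland was sequenced in 2 libraries. The authors removed low-quality and adaptor reads and those under 18 nt, collapsed identical reads, and deposited each tag with its read count, neither normalized nor aligned. The submitters' processing notes name CASAVA, with no version given. The members and lists, and the tests made on them, were chosen with earlier results of these data known. Each tag was given to the listed conserved miRNA that it matched over the most bases counted from its first base, if these numbered 18 or more, and ties counted for each.

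Reads were divided by clean reads and multiplied by 1000000. miRNAs with at least 1 RPM in either library (257) entered the Audic-Claverie test (two-sided, by doubling its smaller tail) and were called if the log2 fold change exceeded 1 in size and the unadjusted p was below 0.01. A count of 0 was set to 0.01 RPM. Other scales were DESeq2 1.42.0 size factors, edgeR 4.0.16 TMM factors (both in R 4.3.3), reads of 21 to 23 nt and conserved miRNA reads. Counting and tests ran in Python 3.11.15 with scipy 1.17.1 and numpy 2.4.6, and plots in matplotlib 3.10.9.

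The rule for names covered the 8 members, the 5 HOX cluster and let-7 miRNAs, the 2 miRNAs nearest in log2 fold change to each family, and each member's most frequent tag. The shares of long and of late-starting reads over all well-read miRNAs, and the other tags named, were chosen after their values were seen. On simulated data drawn from these libraries by read sampling alone, 317 of 317 miRNAs were counted as drawn. Among those of at least 100 reads, the true direction was called for 118 of 118 changed miRNAs. Of the unchanged ones, 0 of 68 were called. All changed miRNAs were simulated with the same size of log2 difference, which was larger than that of any member per clean read. Calling at differences of the size seen for the members was therefore not tested. The RefSeq annotation of ARS1.2 was used for neighbours only.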

Additional observations from a re-analysis of the deposited data

How the results depend on the processing

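No paired analysis was possible because each stage has 1 library, and for the same reason no library could be left out. Counting rules (identical tags, 20 nt, single reads left out, any start), the filters, the adjusted p, the binomial test and 1 added read left 6 members lower and 0 higher. They moved log2 fold changes by at most 0.33, except miR-99a*, which reached −3.14 with identical tags. Scaling mattered more. Members called lower numbered 0 by conserved miRNA reads, 1 by TMM, 0 by DESeq2 and 2 by reads of 21 to 23 nt (82 of all 257 tested). Members called higher numbered 2 by conserved miRNA reads, which left 3 of the 5 HOX cluster and let-7 miRNAs lower. Log2 fold changes turned positive by conserved miRNA reads for miR-10a (1.15), miR-10b (1.40), miR-99a (0.20), miR-99b (0.61), miR-100 (0.55), miR-125a (0.68) and miR-125b (0.30), by TMM for miR-10a (0.37) and miR-10b (0.62), by DESeq2 for these (0.47 and 0.71), and by reads of 21 to 23 nt for miR-10b (0.15). The construction of each scale, a constant added to all log2 fold changes, gives these shifts. The ratio of miR-99a* to miR-99a in D was 0.0237 as reported, 0.0286 with identical tags and 0.0233 with any start. With each tag counted once, 0 members passed for the listed or the shorter 3′ end, where few tags were left to test. Depth limits miR-99a* most, at 66 reads in P.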
